A study of Mus musculus with 6 samples.

Results

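The amino acid and peptide solute carriers are the membrane transporters that move amino acids, small peptides and related amines across cell membranes. They were taken as every gene whose symbol is Slc1a, Slc3a, Slc6a, Slc7a, Slc15a, Slc36a, Slc38a or Slc43a followed by a number, which gave 59 of the 16906 genes of the count table, in 8 families. Slc6a20a and Slc6a20b, whose symbols end in a letter, fall outside that choice. Expression was measured by RNA sequencing of colonic tissue in 2 groups with 3 libraries each. The TNBS group (a chemical model of Crohn's-like colitis) was wild-type male C57BL/6J mice, 6 to 8 weeks old and 20 to 22 g, that had received 5% w/v trinitrobenzene sulfonic acid through the anus. The normal group was mice of the same strain, sex, genotype, age and weight on normal feeding. The labels give no vehicle for the normal mice, no day of sampling, no colon segment and no statement that each library is a separate animal, so the p-values measure only the spread between these libraries. No library with the compound of the series title was analysed here.

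Absorptive epithelium takes up dietary nitrogen at its apical face as free amino acids, through carriers driven by sodium, chloride or protons, and as di- and tripeptides, and it releases amino acids at the basolateral face through exchangers and facilitators. Some exchangers are heteromers, in which an Slc7 light chain does the transport and an Slc3 heavy chain brings it to the membrane. Most dietary peptide uptake takes place in the small intestine, while the distal colon of rodents also carries peptide and amino acid transporters at the surface of its colonocytes.

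The libraries held 15185569 to 20537026 counts in TNBS colon and 21624206 to 23380492 counts in normal colon. Levels are given as CPM, a gene's counts as a share of its library's total on the usual CPM scale, with totals scaled by the trimmed mean of M values (TMM), and 3 counts in a library correspond, before that scaling, to 0.146 to 0.198 CPM in TNBS and 0.128 to 0.139 CPM in normal libraries. The libraries carried the markers of colon epithelium: the summed level of 8 general epithelial markers was 10197 to 13685 CPM in TNBS and 11286 to 12810 CPM in normal colon. Of these 8, 2 were lower in every TNBS library than in every normal library, where 14.8% of all genes were so. None of the 8 passed the edgeR test described below. The TNBS libraries differed among themselves in ways the labels do not give. Hoxb6, a positional homeobox gene, had 8.95, 79.3 and 80.6 CPM in TNBS libraries 1, 2 and 3, against 3.36, 3.72 and 11.5 CPM in normal libraries 1, 2 and 3. Hoxb13, a marker of the distal gut, had 21.4, 0.194 and 0.308 CPM in TNBS colon, against 106, 57.7 and 7.37 CPM in normal colon. The sum of 4 Y-linked genes was 2.82, 416 and 154 CPM in TNBS colon, against 379, 372 and 461 CPM in normal colon, although every mouse is labelled male. Results are therefore also given without TNBS libraries 2 and 3, and without TNBS libraries 1 and 3, where those settings bear on them.

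Most carriers did not pass the test, and the few that did went both ways. Of the 59 genes, 48 had enough counts to be tested, and 4 passed an adjusted p of 0.05 in edgeR's quasi-likelihood test with Benjamini-Hochberg adjustment over all 14126 genes tested. That is 8.33% of the tested carriers, where 2.05% of all tested genes passed. The carriers Slc43a3 and Slc6a7 rose in TNBS colon (2 of 48, 4.17%, against 0.906% of all genes), and Slc15a1 and Slc1a1 fell (2 of 48, 4.17%, against 1.14% of all genes). The median log2 fold change (TNBS over normal) was -0.09 over the tested carriers and 0.01 over all tested genes, and the median size of the log2 fold change without its sign was 0.54 for the carriers and 0.39 for all genes. The difference was under 2-fold for 36 carriers and at least 2-fold for 12. The 3 TNBS values lay wholly above the 3 normal values for 10 carriers (20.8%, where 15.3% of all genes did so) and wholly below for 3 (6.25%, where 14.8% did so), in all 13 carriers or 27.1%, where 30.1% of all genes did so. DESeq2 gave an adjusted p for 13297 of the 14126 genes, and 1345 of these passed (10.1%), with 8 of the 48 carriers among them. With limma-voom 226 of the 14126 genes passed (1.6%), with 5 of the 48 carriers among them. The share of all genes with an unadjusted p under 0.05 was not computed, so counts at that cut below have no background beside them. Together the carriers took 0.326%, 0.242% and 0.283% of all counts in TNBS libraries 1, 2 and 3, against 0.317%, 0.284% and 0.305% in normal libraries 1, 2 and 3, so the groups overlapped.

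**Figure D1:**
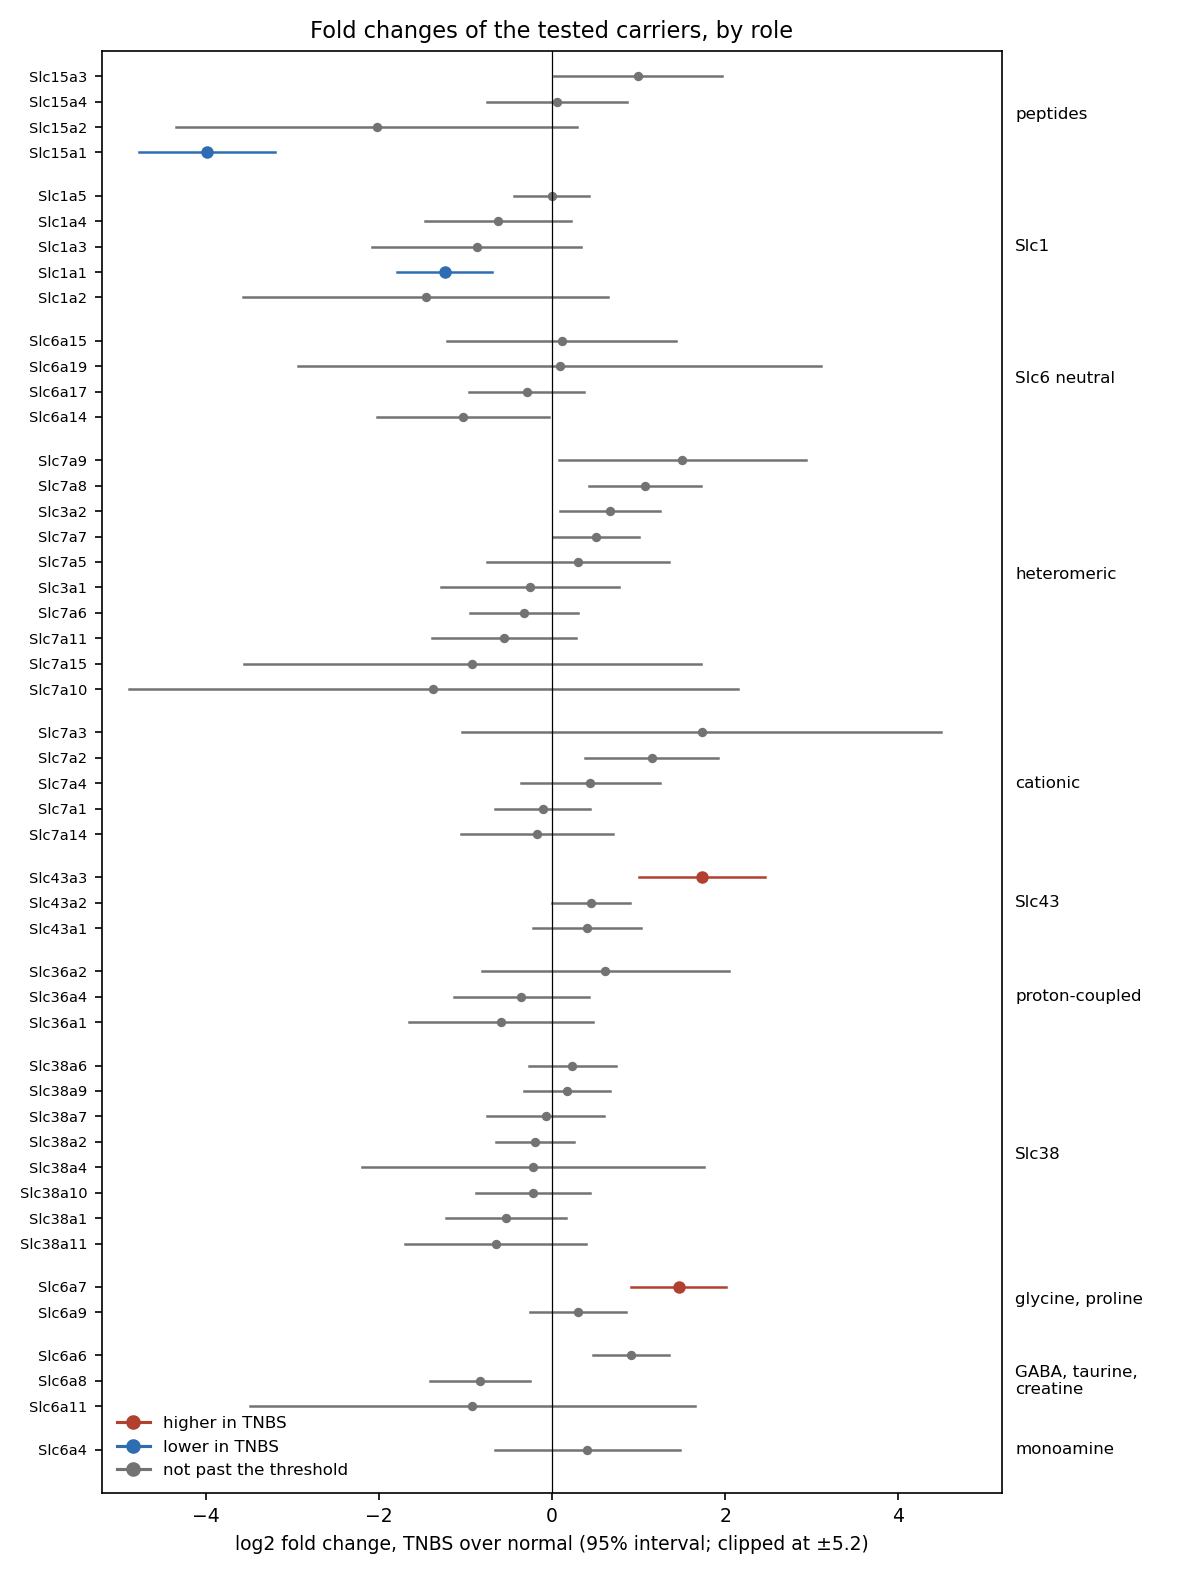
Log2 fold change (TNBS over normal, horizontal axis) of the 48 tested carriers with its 95% interval, in rows grouped by role. Red marks the 2 carriers that rose, blue the 2 that fell, and grey the 44 that did not pass the threshold; most intervals cross 0.

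The largest difference was in Slc15a1 (PEPT1), the proton-driven carrier that brings di- and tripeptides through the apical membrane of enterocytes. It had 4.50, 3.49 and 4.88 CPM in TNBS libraries 1, 2 and 3, against 82.6, 83.6 and 38.8 CPM in normal libraries 1, 2 and 3. All 3 TNBS values were low and close together, and even the lowest normal library, number 3, was several times higher. The means were 4.29 ± 0.72 CPM in TNBS and 68.3 ± 25.6 CPM in normal colon (SD, n = 3 each). The log2 fold change was -3.99 (SE 0.35, edgeR adjusted p = 0.00248), a level 15.9-fold lower in TNBS colon with a 95% interval of 9.21 to 27.4. The gene lies on the minus strand of chromosome 14 from 121459621 to 121505252 in mm10. Per kilobase of exon its mean was 0.878 CPM in TNBS and 14.0 CPM in normal colon, which placed it 36 in the order of the 59 carriers in TNBS colon and 8 in normal colon. It passed the threshold under all 15 alternative settings, with log2 fold changes of -4.29 to -3.81; without TNBS libraries 2 and 3 the adjusted p was 0.0402. The distal gut marker Hoxb13 had 21.4, 0.194 and 0.308 CPM in TNBS colon, against 106, 57.7 and 7.37 CPM in normal colon. The labels give no colon segment, and the part of position along the colon in the Slc15a1 result was not tested. In bulk tissue, fewer cells of a type and less RNA per cell cannot be told apart. Of the 9 markers of absorptive colonocytes, 5 also fell, where 1.14% of all genes fell. Among them Aqp8, a water channel of surface colonocytes, had 5.86, 2.91 and 24.02 CPM in TNBS colon, against 157, 196 and 146 CPM in normal colon. Of the 9 markers, 8 were lower in every TNBS library than in every normal library, where 14.8% of all genes were so. The median log2 fold change of the 9 was -1.57. The summed level of the 9 was 2121, 4014 and 7678 CPM in TNBS colon, against 4711, 5866 and 6729 CPM in normal colon. The sums overlapped through TNBS library 3, which lay above every normal library. Since 8 of the 9 markers were lower in that library, its high sum rests on the remaining marker. The part of these markers in the Slc15a1 result was not tested. The summed level of 8 goblet cell markers was 14229, 4171 and 7102 CPM in TNBS libraries 1, 2 and 3, against 42301, 69313 and 37807 CPM in normal libraries 1, 2 and 3, without overlap. Of the 8, 2 fell, where 1.14% of all genes fell. The part of goblet cell markers in the Slc15a1 and Slc1a1 results was not tested.

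The 2 carriers that fell are shown with the 300 bases around the start site that RefSeq gives for them in GRCm38.p6 (250 before and 50 after it, each read 5′ to 3′ on the gene's strand), as the regions from which the 2 falling transcripts start. The Slc15a1 window is chr14:121505205-121505504 on the minus strand and the Slc1a1 window is chr19:28834885-28835184 on the plus strand. Capitals mark GGCGGG, the core of a GC box, read on either strand, a motif added after the windows had been seen.
Slc15a1: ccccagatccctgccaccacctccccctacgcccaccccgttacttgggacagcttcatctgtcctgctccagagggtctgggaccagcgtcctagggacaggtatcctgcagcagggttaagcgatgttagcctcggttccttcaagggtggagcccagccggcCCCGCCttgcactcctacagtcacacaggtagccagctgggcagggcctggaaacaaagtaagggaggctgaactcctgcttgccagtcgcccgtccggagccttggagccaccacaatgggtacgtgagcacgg
Slc1a1: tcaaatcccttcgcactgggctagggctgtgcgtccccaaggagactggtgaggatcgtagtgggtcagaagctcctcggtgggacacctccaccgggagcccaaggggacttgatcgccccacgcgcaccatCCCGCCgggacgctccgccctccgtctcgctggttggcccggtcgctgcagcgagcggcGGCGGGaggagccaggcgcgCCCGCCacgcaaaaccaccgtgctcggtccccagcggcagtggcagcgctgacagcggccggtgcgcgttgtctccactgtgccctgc
The Slc15a1 window holds 1 match and the Slc1a1 window 3. The same letters are in 35.3% of the 32851 RefSeq windows of the same length and in 45.3% of the 64 windows of carriers.

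Of the other peptide carriers, named here to complete the family, none passed the threshold. Slc15a2 (PEPT2), a high-affinity di- and tripeptide carrier, had 0.772, 4.27 and 17.2 CPM in TNBS colon, against 56.3, 5.03 and 29.3 CPM in normal colon, and its log2 fold change was -2.03 (SE 1.02, edgeR adjusted p = 0.29). Its values spread widely within both groups, which overlapped. Slc15a3 (PHT2), a histidine and peptide carrier of endolysosomes, had 8.54, 9.96 and 7.75 CPM in TNBS colon, against 7.02, 3.49 and 2.63 CPM in normal colon, and its log2 fold change was 0.995 (SE 0.43, adjusted p = 0.229). Its groups did not overlap, and 28.1% of its exon bases lie under the opposite-strand gene Tmem132a, whose reads cannot be told apart from its own if the counting took no account of strand. Slc15a4 (PHT1), of the same compartment, averaged 15.4 ± 2.7 CPM in TNBS and 14.8 ± 6.3 CPM in normal colon (log2 fold change 0.06, SE 0.36).

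The peptidases that produce the substrates of these carriers at the brush border were followed as a list of 12 genes with the partners of the apical carriers. Of the 11 tested, 2 fell and 1 rose with edgeR, where 2.05% of all genes passed, and 6 had an unadjusted p under 0.05. With DESeq2 4 passed, where 10.1% of all genes did, and with limma-voom 2 passed, where 1.6% did. Dpep1, a membrane dipeptidase, had 115, 102 and 120.2 CPM in TNBS colon, against 269, 355 and 248 CPM in normal colon (log2 fold change -1.37, SE 0.20, edgeR adjusted p = 0.0165). Mep1b, the beta subunit of the metalloprotease meprin, had 49.6, 49.6 and 80.4 CPM in TNBS colon, against 127, 163 and 169.9 CPM in normal colon (log2 fold change -1.36, SE 0.24, adjusted p = 0.0328). Xpnpep2, a membrane aminopeptidase that removes a residue in front of proline, went the other way, with 8.77, 29.3 and 23.2 CPM in TNBS colon, against 4.01, 3.44 and 2.83 CPM in normal colon (log2 fold change 2.57, SE 0.45, adjusted p = 0.0328). The groups did not overlap for any of these 3 genes. Anpep and Dpp4, further enzymes of that membrane, did not pass the threshold, with log2 fold changes of 0.11 and -0.56.

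Slc1a1 (EAAT3), the sodium-driven carrier of glutamate, aspartate and cysteine, was the other carrier that fell. It had 46.7, 33.1 and 24.5 CPM in TNBS colon, against 83.3, 76.5 and 86.6 CPM in normal colon, and every TNBS library was below every normal library. The means were 34.8 ± 11.2 CPM in TNBS and 82.1 ± 5.1 CPM in normal colon (SD, n = 3 each), a level 2.36-fold lower in TNBS colon with a 95% interval of 1.61 to 3.45 (log2 fold change -1.24, SE 0.24, edgeR adjusted p = 0.0407). The gene lies on the plus strand of chromosome 19 from 28835049 to 28913960, and 31.9% of its exon bases lie under the opposite-strand gene 4430402I18Rik, which had 0 to 10 counts in any library. The call did not hold without a scaling factor (adjusted p = 0.0609), nor without TNBS library 2 (0.126), TNBS library 3 (0.118), normal library 1 (0.112), normal library 2 (0.152) or normal library 3 (0.131); in these 6 settings the log2 fold change was -1.27 to -1.04. Without TNBS libraries 2 and 3 the log2 fold change was -0.81 (adjusted p = 0.525), and without TNBS libraries 1 and 3 it was -1.32 (0.0428).

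The remaining Slc1 genes did not pass the threshold. Slc1a5 (ASCT2), the exchanger of glutamine and other neutral amino acids, was the third most abundant carrier per kilobase in both groups and had 216, 182 and 170.2 CPM in TNBS colon, against 207, 207 and 156 CPM in normal colon. Its log2 fold change was -0.002 (95% interval -0.44 to 0.43), and its sign turned under 9 of the 15 alternatives. Slc1a4 (ASCT1), the exchanger of alanine, serine and cysteine, averaged 13.4 ± 5.7 CPM in TNBS and 20.7 ± 7.1 CPM in normal colon (log2 fold change -0.62, SE 0.37). The glial glutamate carriers Slc1a2 and Slc1a3 were low, at 0.318 to 6.93 CPM in TNBS and 0.959 to 7.59 CPM in normal colon, with overlapping groups.

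Slc43a3, a facilitator of purine nucleobases placed in a family otherwise known for branched-chain amino acids, rose. It had 89.4, 232.5 and 129 CPM in TNBS colon, against 41.0, 49.4 and 45.4 CPM in normal colon. The normal libraries lay close together, every TNBS library was above them, and TNBS library 2 was the highest. The log2 fold change was 1.73 (SE 0.32, edgeR adjusted p = 0.036), a level 3.32-fold higher in TNBS colon with a 95% interval of 2.004 to 5.499. Per kilobase of exon it averaged 33.7 CPM in TNBS and 10.1 CPM in normal colon, place 4 in TNBS and place 9 in normal colon. The call did not hold without TNBS library 2 (log2 fold change 1.27, adjusted p = 0.0569), TNBS library 3 (0.0705), normal library 1 (0.11), normal library 2 (0.152) or normal library 3 (0.141); in the last 4 the log2 fold change was 1.67 to 1.83. Without TNBS libraries 2 and 3 the log2 fold change was 0.99 (adjusted p = 0.318), and without TNBS libraries 1 and 3 it was 2.36 (0.00413).

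Endothelial markers were also higher in TNBS colon. The sum of 8 of them was 352, 609 and 362 CPM in TNBS libraries 1, 2 and 3, against 211, 205 and 179 CPM in normal libraries 1, 2 and 3. Of the 8, 3 rose, where 0.906% of all genes rose. TNBS library 2 was the highest for Slc43a3 and for this sum. It was also the highest for Slc6a7 (44.6 CPM) and for the summed neutrophil markers (149 CPM). Cdh5, the cadherin of endothelial junctions, had 56.1, 83.0 and 51.2 CPM in TNBS colon, against 23.9, 29.8 and 25.4 CPM in normal colon (log2 fold change 1.27, SE 0.23, edgeR adjusted p = 0.036). The part of vascular cells in the Slc43a3 result was not tested. Slc43a1 (LAT3), which ends 72.984 kb before Slc43a3 starts on the same strand of chromosome 2, had 9.54, 10.9 and 11.5 CPM in TNBS colon, against 8.81, 7.57 and 7.77 CPM in normal colon (log2 fold change 0.41, SE 0.28). Slc43a2 (LAT4), which releases branched-chain amino acids at the basolateral membrane, had 26.7, 29.2 and 28.6 CPM in TNBS colon, against 22.8, 19.9 and 19.1 CPM in normal colon (log2 fold change 0.45, SE 0.20, edgeR adjusted p = 0.236). In all 3 Slc43 genes every TNBS library was above every normal library, where 15.3% of all genes were so. Of the 3, 1 passed the test as higher, where 0.906% of all genes did.

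**Figure D2:**
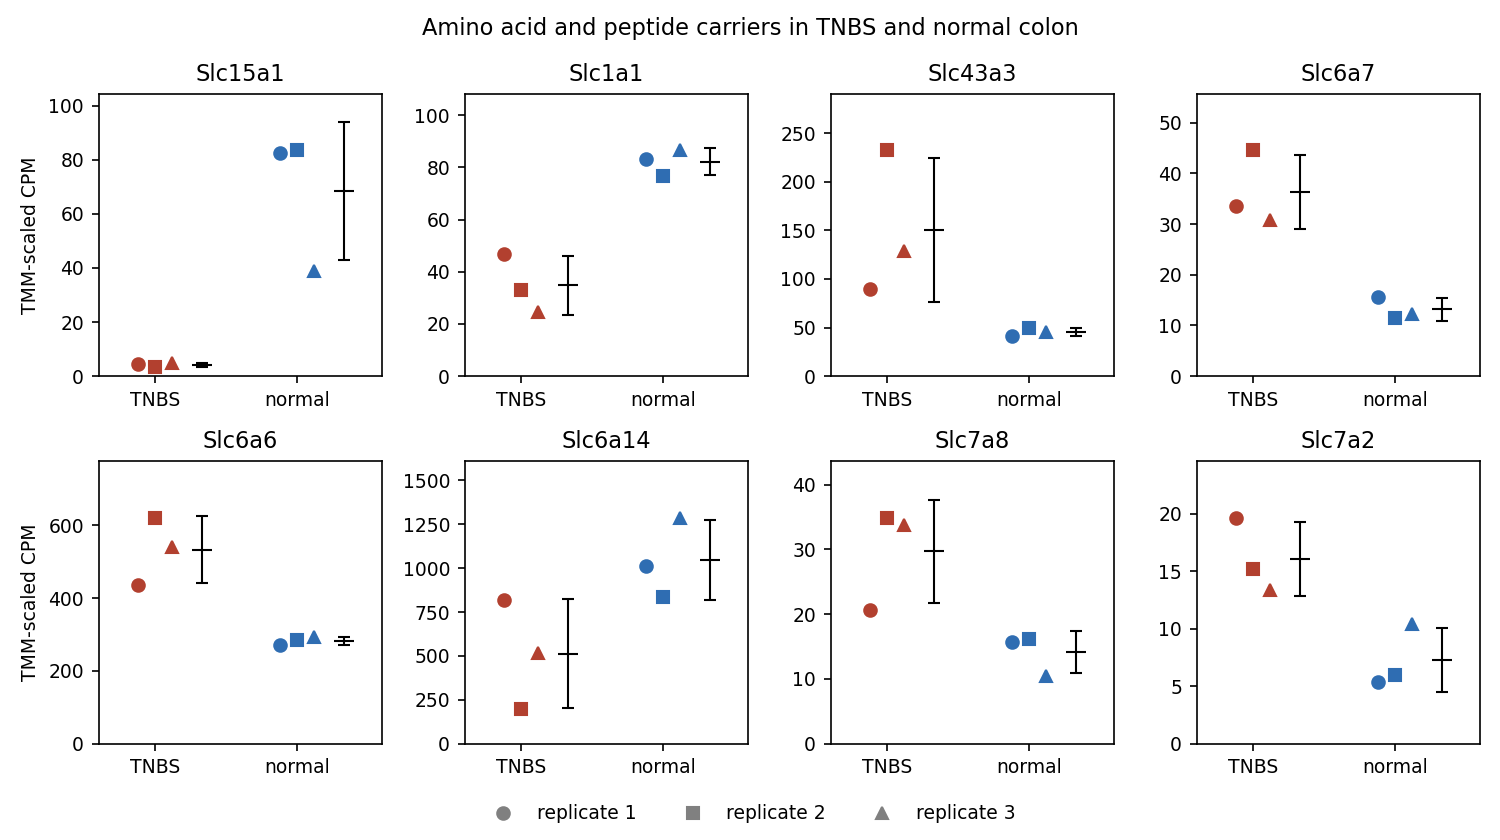
TMM-scaled CPM of 8 carriers in the 3 TNBS (red, left) and 3 normal (blue, right) libraries, with the mean and SD beside each group; the marker shape gives the replicate number, which pairs no libraries. Slc15a1 and Slc1a1 are low in every TNBS library, Slc43a3 and Slc6a7 are high in every TNBS library, and Slc6a14 spreads from 199 to 819.9 CPM in TNBS colon.

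Slc6a7 (PROT), a sodium- and chloride-driven proline carrier known mainly from brain synapses, rose. It had 33.5, 44.6 and 30.7 CPM in TNBS colon, against 15.7, 11.6 and 12.2 CPM in normal colon, and the groups did not overlap. The means were 36.3 ± 7.3 CPM in TNBS and 13.2 ± 2.2 CPM in normal colon (SD, n = 3 each), a level 2.75-fold higher in TNBS colon with a 95% interval of 1.89 to 4.02 (log2 fold change 1.46, SE 0.24, edgeR adjusted p = 0.0286). The gene lies on the minus strand of chromosome 18, and starts 4.639 kb beyond the end of Cdx1, an intestinal homeobox gene of the same strand. Cdx1 had 164, 223 and 164 CPM in TNBS colon, against 138, 152 and 85.9 CPM in normal colon, and did not pass the threshold (log2 fold change 0.55, SE 0.25, adjusted p = 0.24). Whether part of the Slc6a7 counts are reads running on from Cdx1 was not tested. Markers of enteric neurons and glia summed to 79.5 to 113 CPM in TNBS and 82.0 to 121 CPM in normal colon. Of the 10, none passed with edgeR or limma-voom and 1 had an unadjusted p under 0.05. With DESeq2 1 passed, where 10.1% of all genes did. The part of these markers in the Slc6a7 result was not tested. The Slc6a7 call did not hold without TNBS library 2 (adjusted p = 0.0801), TNBS library 3 (0.0566), normal library 1 (0.0541), normal library 2 (0.148) or normal library 3 (0.0938), where the log2 fold change stayed between 1.29 and 1.62. Without TNBS libraries 2 and 3 it was 1.35 (adjusted p = 0.267), and without TNBS libraries 1 and 3 it was 1.76 (0.0268).

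The other glycine and proline carrier tested, Slc6a9 (GlyT1), averaged 21.3 ± 1.8 CPM in TNBS and 17.3 ± 4.3 CPM in normal colon (log2 fold change 0.30, SE 0.25). Slc6a5 (GlyT2), the glycine carrier of inhibitory neurons, had 6 counts in TNBS library 1 and 0 in every other library and was not tested.

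Slc6a6 (TauT), the taurine carrier, was the abundant carrier closest to the threshold. It had 437, 622 and 541 CPM in TNBS colon, against 271, 285 and 293 CPM in normal colon, with no overlap and normal libraries close together. The log2 fold change was 0.91 (SE 0.20, edgeR adjusted p = 0.0513), or 1.88-fold with a 95% interval of 1.39 to 2.56. It passed the threshold under 7 alternatives, among them DESeq2 (adjusted p = 0.000311), limma-voom (0.0432) and the edgeR fit without TNBS library 1 (0.0178). It did not pass in edgeR without TNBS library 2 (0.135), TNBS library 3 (0.166), normal library 1 (0.148), normal library 2 (0.199) or normal library 3 (0.116). There the log2 fold change was 0.79 to 0.94, and without TNBS libraries 2 and 3 it was 0.63. Slc6a6 held 19.1% of all carrier counts in TNBS and 8.91% in normal colon, and per kilobase of exon it took place 2 in TNBS and place 5 in normal colon.

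Slc6a8 (CRT), the creatine carrier, had 188, 130.1 and 128 CPM in TNBS colon, against 282, 326 and 187 CPM in normal colon, with TNBS library 1 just above normal library 3. The log2 fold change was -0.84 (SE 0.25, edgeR adjusted p = 0.123); it passed under DESeq2 (0.0262) and without TNBS library 1 (0.0452). The GABA carrier Slc6a11 had 0 to 1.499 CPM in TNBS and 0.656 to 2.57 CPM in normal colon, and Slc6a12 and Slc6a13, for GABA and betaine, were not tested. Slc6a4 (SERT), the serotonin carrier, had 6.04, 19.1 and 12.0 CPM in TNBS colon, against 14.3, 6.16 and 7.42 CPM in normal colon, so the groups overlapped (log2 fold change 0.41, SE 0.47, adjusted p = 0.648).

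Slc6a14 (ATB0,+) takes up neutral and cationic amino acids with sodium and chloride. Its mean level per kilobase of exon was the highest of the carriers in both groups. In TNBS library 2 Slc6a6 was higher on that scale, at 73.5 against 58.0 CPM. Without division by length, Slc6a6 had the higher mean in TNBS colon, 533.5 against 512 CPM. Per kilobase of exon Slc6a14 had 239, 58.0 and 151 CPM in TNBS colon, against 294, 244 and 375 CPM in normal colon. It held 20.1% of all carrier counts in TNBS and 32.7% in normal colon. On the CPM scale its values were 819.9, 199 and 517 in TNBS colon, against 1011, 836 and 1288 in normal colon, with no overlap. TNBS library 2 was the lowest and TNBS library 1 lay just under normal library 2. The log2 fold change was -1.03 (SE 0.44, edgeR adjusted p = 0.226), and the spread among TNBS libraries (SD 310.3 CPM) was larger than that among normal libraries (SD 228 CPM). Without TNBS library 1 it was -1.54 and passed the threshold (adjusted p = 0.0486), and without TNBS library 2 it was -0.64 (0.399). Without TNBS libraries 1 and 3 it was -2.39 (0.0145), and without TNBS libraries 2 and 3 it was -0.35 (0.955).

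Slc6a19 (B0AT1), the main apical carrier of neutral amino acids in the small intestine, was near the floor, with 0.863, 0 and 0.975 CPM in TNBS colon, against 0.654, 0.0453 and 1.06 CPM in normal colon. Its groups overlapped. Slc6a15 and Slc6a17, carriers of neutral amino acids known mainly from brain, had log2 fold changes of 0.11 and -0.29, and neither passed the threshold.

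**Figure D3:**
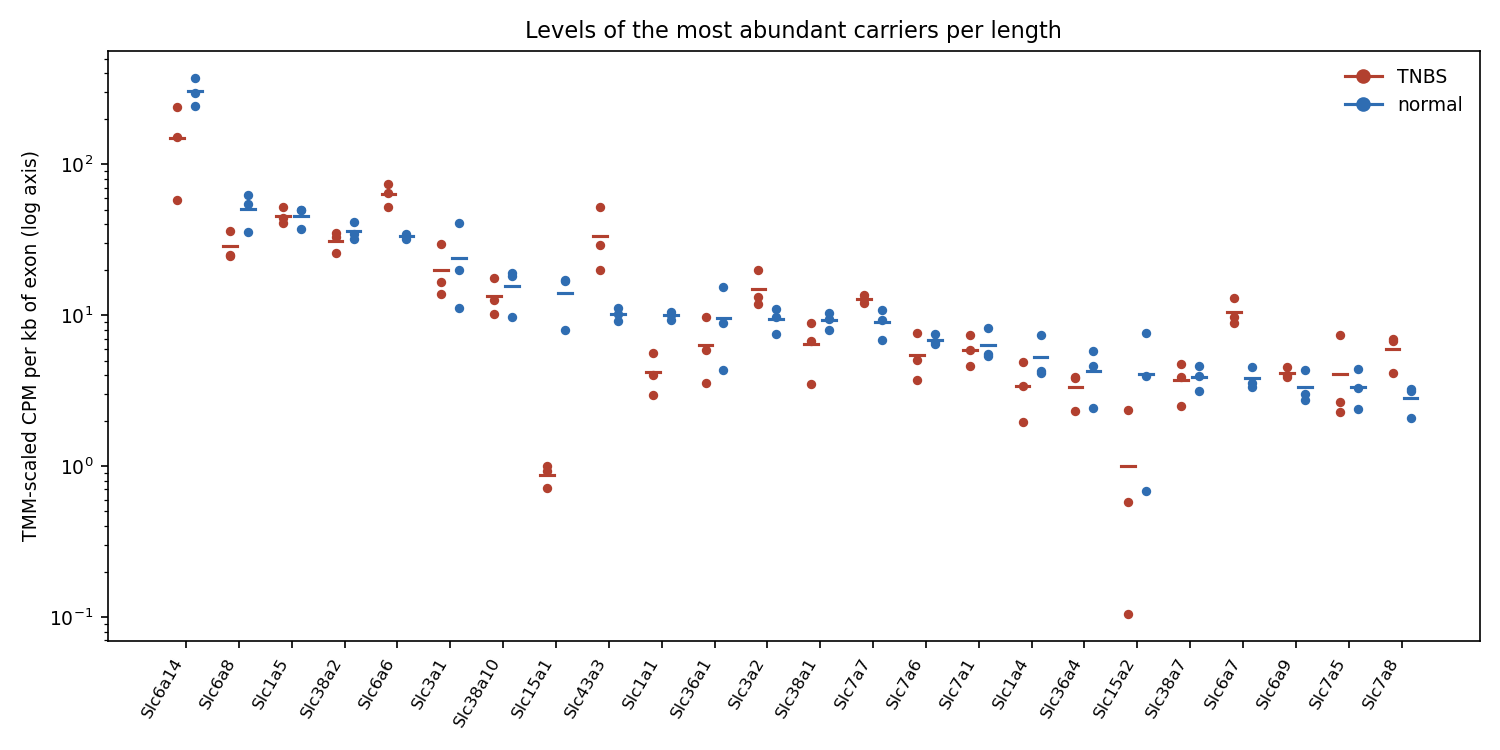
TMM-scaled CPM per kilobase of exon (log axis) of the 24 carriers with the highest level in normal colon, in that order; each dot is a library, red for TNBS and blue for normal, and bars are means. Slc6a14 has the highest mean in both groups, and Slc15a1 stands out with TNBS libraries between 0.715 and 0.998 against normal libraries between 7.95 and 17.1.

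Among the heteromeric carriers, 10 genes were tested and none passed the edgeR threshold, while 4 had an unadjusted p under 0.05. With DESeq2 1 passed, where 10.1% of all genes did, and with limma-voom 0 passed, where 1.6% did. Slc3a2 (4F2hc, CD98), the heavy chain of most Slc7 light chains, had 41.7, 70.5 and 46.3 CPM in TNBS colon, against 34.1, 39.0 and 26.3 CPM in normal colon, with no overlap (log2 fold change 0.67, SE 0.26, edgeR adjusted p = 0.188). Slc7a8 (LAT2), a basolateral exchanger of neutral amino acids, had 20.6, 34.9 and 33.7 CPM in TNBS colon, against 15.7, 16.2 and 10.4 CPM in normal colon, with no overlap (log2 fold change 1.07, SE 0.29, adjusted p = 0.0949). It passed under DESeq2 (0.0163) and without TNBS library 1 (0.0266). Slc7a7 (y+LAT1), the basolateral exit of cationic amino acids, had 42.3, 44.7 and 39.98 CPM in TNBS colon, against 35.7, 31.0 and 22.7 CPM in normal colon, again with no overlap (log2 fold change 0.51, SE 0.22, adjusted p = 0.228).

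The other light chains of Slc3a2 overlapped between the groups. Slc7a5 (LAT1), the exchanger of large neutral amino acids, had 27.4, 8.47 and 9.80 CPM in TNBS colon, against 8.81, 16.2 and 12.1 CPM in normal colon, so that its positive log2 fold change of 0.30 rested on TNBS library 1; without that library it was -0.44. Slc7a6 (y+LAT2) averaged 24.9 ± 9.1 CPM in TNBS and 31.2 ± 2.5 CPM in normal colon (log2 fold change -0.32, SE 0.28). Slc7a11 (xCT), which exchanges cystine for glutamate, had 12.6, 5.17 and 6.83 CPM in TNBS colon, against 10.9, 12.1 and 13.1 CPM in normal colon (log2 fold change -0.56, SE 0.37, edgeR adjusted p = 0.408). Slc7a10 and Slc7a15 had 0 to 42 counts in a library.

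**Figure D4:**
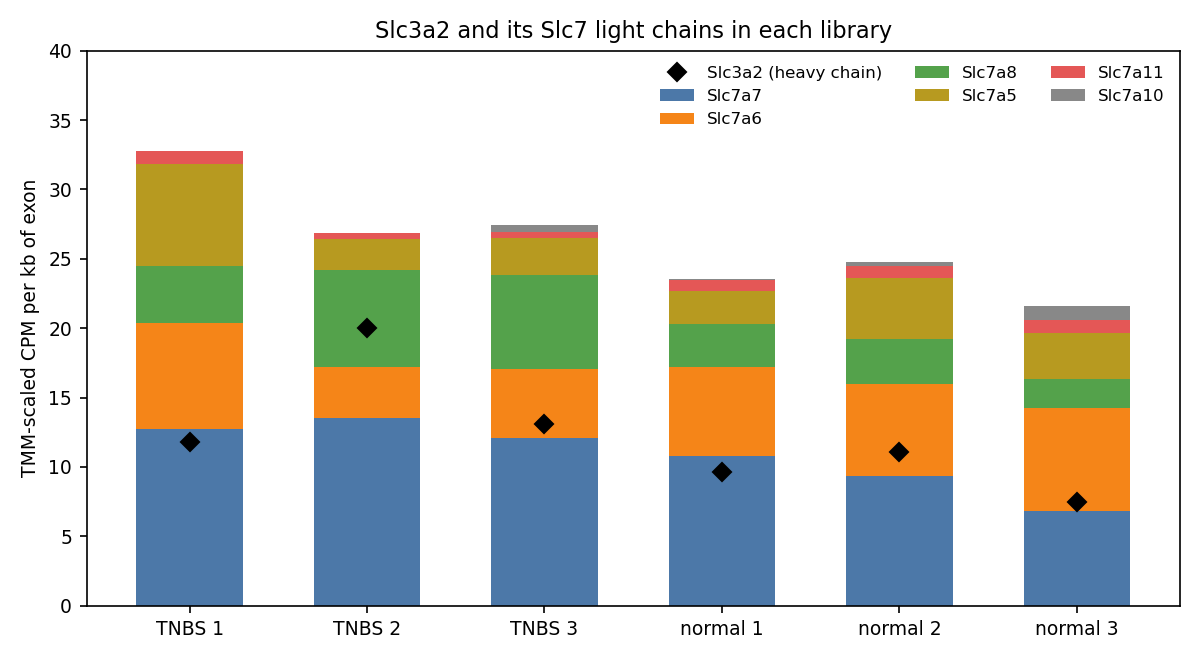
Stacked TMM-scaled CPM per kilobase of exon of the 6 light chains that pair with Slc3a2 in each library, with Slc3a2 itself as a black diamond; TNBS libraries are on the left. The stacks reach 26.8 to 32.8 in TNBS and 21.6 to 24.8 in normal libraries, and Slc3a2 lies below the stack in every library.

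Set on the scale of CPM per kilobase of exon, Slc3a2 was 0.360, 0.745 and 0.478 times the sum of its 6 light chains in TNBS libraries 1, 2 and 3, against 0.411, 0.446 and 0.346 times in normal libraries 1, 2 and 3. The ratio overlapped between the groups, with TNBS library 2 the highest. The apical cystine and cationic amino acid carrier is built from Slc3a1 (rBAT) and Slc7a9. Slc3a1 had 31.6, 37.8 and 67.2 CPM in TNBS colon, against 25.3, 45.1 and 92.8 CPM in normal colon (log2 fold change -0.26, SE 0.45), and 26.5% of its exon bases lie under the opposite-strand gene Prepl, which had 47.1 to 98.9 CPM in a library. Slc7a9 had 1.95, 13.6 and 6.88 CPM in TNBS colon, against 2.97, 2.49 and 2.42 CPM in normal colon. TNBS library 1 lay below all normal libraries and the other two above them (log2 fold change 1.504, SE 0.63, edgeR adjusted p = 0.22); without library 1 the log2 fold change was 1.96 (adjusted p = 0.0358), and without TNBS libraries 2 and 3 it was -0.42. Slc3a1 exceeded Slc7a9 per kilobase in every library, by 3.26 to 19.0 times in TNBS and 10.1 to 45.1 times in normal colon.

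Of the 5 cationic amino acid carriers, none passed with edgeR or limma-voom and 1 did with DESeq2, the 1 that had an unadjusted p under 0.05. With DESeq2 10.1% of all genes passed. Slc7a2 (CAT2), an arginine carrier known to be induced in activated macrophages, had 19.7, 15.2 and 13.4 CPM in TNBS colon, against 5.37, 5.94 and 10.4 CPM in normal colon, with no overlap (log2 fold change 1.15, SE 0.34, edgeR adjusted p = 0.116), and the DESeq2 value was 0.0303. The summed markers of monocytes and macrophages were 267 to 683 CPM in TNBS and 349 to 496 CPM in normal colon. Of the 9 tested, 2 rose with edgeR, where 0.906% of all genes rose. With DESeq2 2 passed, where 10.1% of all genes did, and with limma-voom 1 passed, where 1.6% did. The median log2 fold change of the 9 was 0.55, and the part of these markers in the Slc7a2 values was not tested. The defining marker Csf1r was listed at 7, 0 and 2 counts in TNBS colon and at 0 in normal colon; since other macrophage markers were counted in both groups and the counting annotation is not known, its 0 cannot be read as an absence of these cells. Slc7a1 (CAT1), the widespread arginine carrier, averaged 68.2 ± 15.9 CPM in TNBS and 73.6 ± 18.7 CPM in normal colon (log2 fold change -0.11, SE 0.24). Slc7a4 and Slc7a14, relatives of the arginine carriers, had log2 fold changes of 0.44 and -0.17, and Slc7a3 had 0 to 48 counts in a library.

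The Slc38 family, sodium-coupled carriers of glutamine and other neutral amino acids, had 8 tested genes, with log2 fold changes of -0.65 to 0.23 and a median of -0.21, none of them past the threshold in edgeR, DESeq2 or limma-voom or at an unadjusted p under 0.05, and all with overlapping groups. Slc38a2 (SNAT2), which is known to be induced when cells run short of amino acids, had 311, 227 and 289.5 CPM in TNBS colon, against 303, 282 and 365 CPM in normal colon (log2 fold change -0.20, 95% interval -0.65 to 0.25). Slc38a1 (SNAT1) was lowest in TNBS library 2, with 154, 60.6 and 116 CPM in TNBS colon, against 137, 163 and 178 CPM in normal colon. Slc38a9, the lysosomal arginine sensor of mTORC1, had 34.6, 43.9 and 38.5 CPM in TNBS colon, against 36.3, 40.6 and 26.7 CPM in normal colon. None of the 3 proton-coupled carriers passed by any of these measures: Slc36a1 (PAT1), for glycine, alanine and proline, had 54.4, 20.0 and 33.1 CPM in TNBS colon, against 86.6, 50.3 and 24.5 CPM in normal colon (log2 fold change -0.58, SE 0.47), and Slc36a2 and Slc36a4 had log2 fold changes of 0.62 and -0.35.

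The 11 carriers with too few counts for the test, which had 0 to 54 counts in a library and 6 to 83 over the 6 libraries, included Slc1a6, Slc1a7, Slc6a2, Slc6a5, Slc6a12, Slc6a13, Slc6a16, Slc38a3, Slc38a5 and Slc38a8. Most are known from brain, retina, liver or kidney. Slc38a3, Slc38a5 and Slc6a13 were at 0 in all TNBS libraries, and Slc6a5 and Slc6a16 were at 0 in all normal libraries. At the other end, the 5 carriers with the highest level per kilobase in each group held 61.7% of carrier counts in TNBS and 66.0% in normal colon. In order of level these were Slc6a14, Slc6a6, Slc1a5, Slc43a3 and Slc38a2 in TNBS colon, and Slc6a14, Slc6a8, Slc1a5, Slc38a2 and Slc6a6 in normal colon. In normal colon the libraries of neighbours in the order from Slc6a8 to Slc6a6 overlapped, while Slc6a14 stood above the rest in every library; in TNBS colon the lowest Slc6a14 library lay within the Slc6a6 range.

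A list around the response to amino acid shortage through the transcription factor Atf4 was followed because several carriers are known targets of Atf4. The list also holds Atf4 itself and the kinases Eif2ak3 and Eif2ak4. Of 22 tested, none passed the edgeR threshold or that of limma-voom, while 6 had an unadjusted p under 0.05. With DESeq2 5 passed, where 10.1% of all genes did. The TNBS values lay wholly above the normal values for 4 and wholly below for 5, where 15.3% and 14.8% of all genes did so. The furthest from 0 was Aldh1l2, a mitochondrial folate enzyme. It had 13.4, 10.9 and 6.98 CPM in TNBS colon, against 16.6, 42.4 and 40.2 CPM in normal colon (log2 fold change -1.66, SE 0.39, edgeR adjusted p = 0.0697). Asns, asparagine synthetase, had 69.6, 70.7 and 53.4 CPM in TNBS colon, against 40.7, 62.2 and 63.4 CPM in normal colon. Slc7a11, a known target, and Slc7a7 are shown by their RefSeq windows in GRCm38.p6, chr3:50443564-50443863 and chr14:54417895-54418194, both on the minus strand, since these hold the motif of the pathway while their transcripts did not pass the test. Capitals mark TGATGNAA, the core of the amino acid response element bound by Atf4 with a C/EBP partner, read on either strand.
Slc7a11: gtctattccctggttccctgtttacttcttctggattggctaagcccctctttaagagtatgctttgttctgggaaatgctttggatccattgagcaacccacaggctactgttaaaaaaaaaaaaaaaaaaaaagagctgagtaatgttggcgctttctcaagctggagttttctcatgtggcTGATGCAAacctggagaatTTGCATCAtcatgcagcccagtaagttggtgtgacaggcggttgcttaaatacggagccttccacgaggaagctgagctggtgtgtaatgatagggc
Slc7a7: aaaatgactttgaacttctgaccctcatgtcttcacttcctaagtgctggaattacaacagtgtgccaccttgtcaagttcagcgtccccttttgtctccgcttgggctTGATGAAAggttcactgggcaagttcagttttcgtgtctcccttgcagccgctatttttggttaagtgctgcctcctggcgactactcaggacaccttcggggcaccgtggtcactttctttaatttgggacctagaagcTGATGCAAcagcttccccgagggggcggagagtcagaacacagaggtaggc
Slc7a7 has a further RefSeq window with a match, chr14:54417653-54417952, and the window shown was chosen because it holds the most matches. Both windows shown hold 2 matches, and the pair in the Slc7a11 window begin at 66 and 47 bases before the start site. The letters are in 3.97% of all 32851 windows and in 4 of the 64 windows of carriers (6.25%), in the genes Slc7a11, Slc7a7 and Slc1a4. TGACNNNGC, the core of the antioxidant response element, is in 12.4% of all windows and in 17.2% of the windows of carriers.

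In 4 further lists around the carriers, calls are read against the 2.05% of all genes that passed with edgeR. The shares were 10.1% with DESeq2 and 1.6% with limma-voom. Of 12 tested genes of glutathione synthesis and the Nrf2 response, 1 rose: Hmox1, haem oxygenase, with 12.6, 17.8 and 12.4 CPM in TNBS colon, against 5.80, 3.49 and 3.48 CPM in normal colon (log2 fold change 1.74, SE 0.35, edgeR adjusted p = 0.0432); 4 of the list had an unadjusted p under 0.05, and 2 passed with DESeq2 and 2 with limma-voom. Gclc, the rate-limiting enzyme of glutathione synthesis, had 189, 227 and 209.9 CPM in TNBS colon, against 107, 117 and 133 CPM in normal colon (log2 fold change 0.81, SE 0.17, adjusted p = 0.0512). Of 22 tested genes of glutamine, arginine and tryptophan metabolism, 1 rose: Ido1, which degrades tryptophan, with 6.23, 6.40 and 20.0 CPM in TNBS colon, against 1.05, 0.181 and 1.21 CPM in normal colon (log2 fold change 3.74, SE 0.75, adjusted p = 0.045). Of that list, 7 had an unadjusted p under 0.05, 5 passed with DESeq2 and none with limma-voom, so the Ido1 call did not hold there. None of 20 genes of amino acid sensing by mTORC1 passed with edgeR or limma-voom, while 3 had an unadjusted p under 0.05 and 2 passed with DESeq2; the furthest from 0 was Castor1, an arginine sensor (log2 fold change 1.97, SE 0.59, adjusted p = 0.12). None of 10 amino acid transporters of other families passed with any of the 3 tools or at an unadjusted p under 0.05; the furthest was Slc17a6, a vesicular glutamate carrier, at 0.0646 to 0.682 CPM in TNBS and 0.523 to 1.97 CPM in normal colon.

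**Figure D5:**
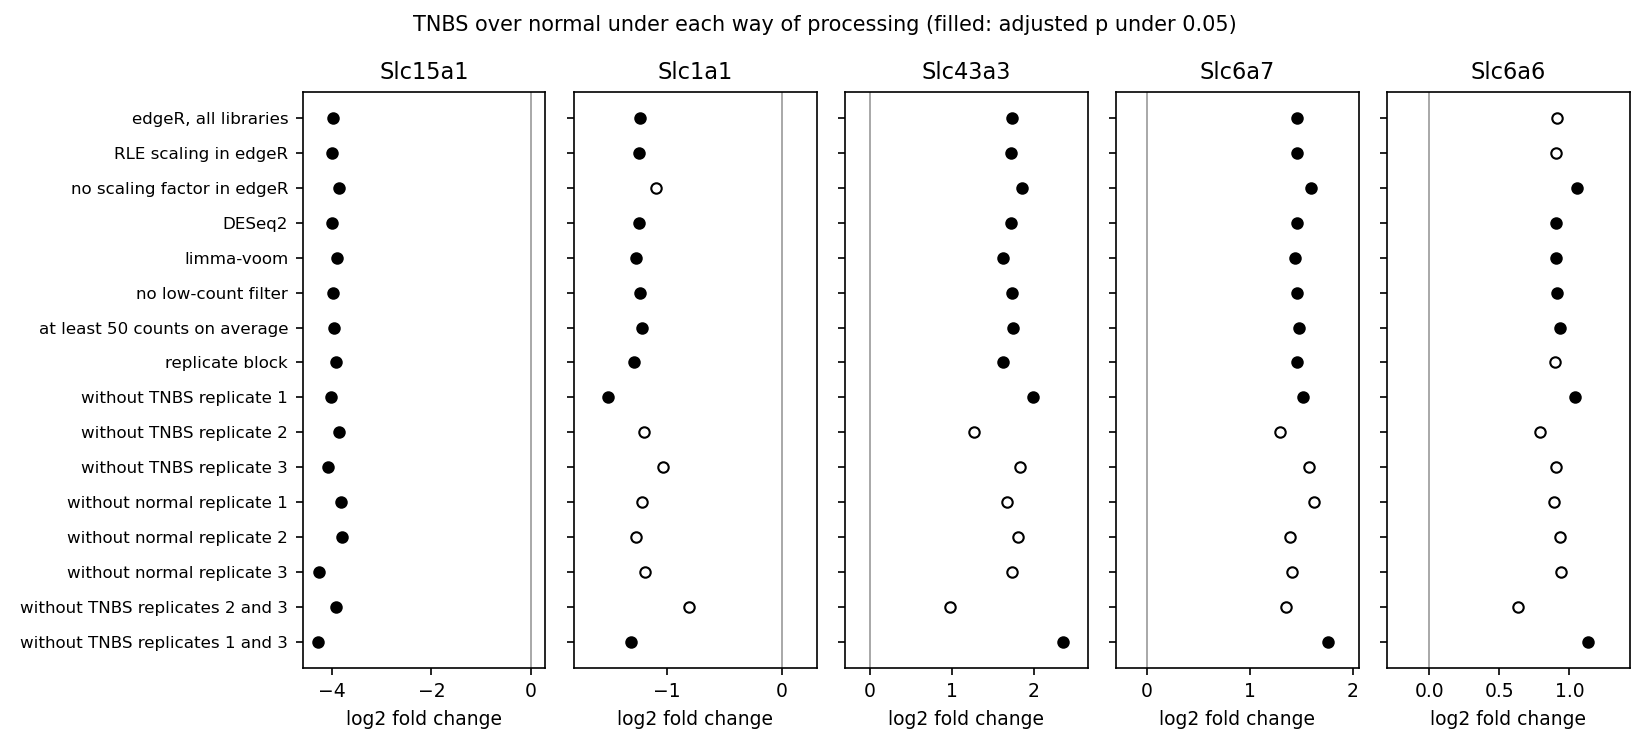
Log2 fold change (TNBS over normal) of 5 carriers under the main fit (top row, edgeR with all libraries) and 15 alternatives; filled circles passed an adjusted p of 0.05. Slc15a1 is filled in every row, Slc1a1 is open in 7 rows, Slc43a3 and Slc6a7 are open in 6 rows each, and Slc6a6 is filled in 7 rows; no circle lies on the other side of 0.

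The 3 TNBS libraries did not contribute alike. On the log2 scale with 0.5 CPM added, the median difference of the tested carriers from the normal mean was 0.06, -0.50 and 0.02 in TNBS libraries 1, 2 and 3, and the median size of the difference was 0.36, 1.02 and 0.45. TNBS library 2 was thus the furthest from normal colon, and it was also the shallowest. Without TNBS library 1, 9 carriers passed, the 4 above with Slc6a6, Slc6a8, Slc6a14, Slc7a8 and Slc7a9. Without any other single library, 1 passed, Slc15a1. Neutrophil markers, which summed to 79.5, 149 and 67.3 CPM in TNBS colon, against 3.58, 3.90 and 4.74 CPM in normal colon, were highest in the same library, and their part in these values was not tested.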

How the data were processed

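Counts per gene of 3 TNBS and 3 normal colon libraries were analysed. The authors deposited raw counts for 16906 protein-coding genes; per the submitters' processing notes, base calling used CASAVA 1.8 and reads were aligned with HISAT2 to mm10, with the HISAT2 version, counter, annotation and strand setting not given in the sources used here. A further 6 per-sample columns of the table were not used.

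Genes were filtered with filterByExpr (minimum count 10, minimum total 15), scaled by TMM and tested with edgeR 4.0.16 (quasi-likelihood, two-sided, group only, R 4.3.3), with Benjamini-Hochberg adjustment over all tested genes and a threshold of 0.05; intervals are 95%. CPM values use TMM-scaled totals, and exon lengths and positions are from GENCODE vM21, of the same build. Promoter windows are from RefSeq, and 43 of the 59 carriers matched one. Floors of 3 counts cover counting error only. Library totals were 15185569 to 23380492 counts, and no libraries of a group agreed within sampling noise (chi-square per degree of freedom 37.9 to 176).

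The carriers named are those called, the heteromer partners, 10 intestinal and 2 cationic carriers, the 6 largest rises and falls without overlap and at least 50 counts on average in the higher group, and the 5 highest per kilobase in each group; others were named after their values were seen. From each pathway list up to 3 called genes are named, or the 1 furthest from 0; Anpep, Dpp4, Asns, Gclc, Cdx1, Aqp8, Cdh5, the Hox genes and further carriers were named after their values were seen. The carriers, lists and tests were chosen with earlier results of these data known. Alternatives were RLE scaling, no scaling, DESeq2 1.42.0, limma-voom 3.58.1, other count filters, a replicate block and left-out libraries. The planned comparison of protein sequences was not made, and some genes are not reported here.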

Additional observations from a re-analysis of the deposited data

How the results depend on the processing

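Over all genes, 128 rose and 161 fell in TNBS colon by edgeR, and 2 carriers did each. DESeq2 gave 666 and 679 genes and 5 rising carriers, limma-voom 80 rising and 146 falling genes, and no count filter 209 rising and 210 falling genes. Without a scaling factor 196 genes rose and 102 fell, 1 carrier fell, the median of all genes moved from 0.01 to 0.15, and rising genes were 65.8% of calls, against 44.3%. Leaving out 1 library gave 7 to 532 rising and 11 to 576 falling genes, with 0 to 5 rising and 1 to 4 falling carriers, the high ends without TNBS library 1. Without TNBS libraries 2 and 3, 30 genes rose and 33 fell, with 0 rising and 1 falling carrier; without TNBS libraries 1 and 3, 338 rose and 480 fell, with 4 and 4 carriers and a median of -0.55. In these 2 settings the spread of the lone TNBS library is taken from the normal libraries. The causes were not tested, beyond fewer libraries in the left-out settings.

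Same-numbered libraries did not deviate together (r = 0.00547, 0.0149 and 0.0354), so the numbers were not taken to pair them; the fit with a replicate block gave 153 rising and 207 falling genes and the same 4 carriers.

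No sign turned for a called carrier. For Slc1a5 the log2 fold change was 0.14 without scaling, 0.0034 both with limma-voom and with the replicate block, 0.015 with at least 50 counts on average, -0.13 to 0.078 with 1 library left out and 0.19 without TNBS libraries 2 and 3. For Slc7a1 it was 0.046 without scaling, -0.29 to 0.12 with 1 library left out and 0.20 without TNBS libraries 2 and 3. For Slc6a19 it was -0.021 with limma-voom, -0.13 with the block, -0.44 to 0.82 with 1 library left out and -6.57 without TNBS libraries 1 and 3. With 1 library left out, Slc7a5 had -0.44 to 0.59, Slc6a4 -0.042 to 0.87 and Slc3a1 -0.65 to 0.37. Without TNBS libraries 1 and 3, Slc7a5 had -0.55. Without TNBS libraries 2 and 3, Slc36a1 had 0.018, Slc6a4 -0.62, Slc7a11 0.064, Slc7a6 0.16 and Slc7a9 -0.42. Of 358 values of named carriers, 295 kept direction and side of the threshold, 19 lost and 16 gained the call, and 28 changed sign.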
